A study of Rattus norvegicus with 18 samples.

Results

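The genes described here encode the machinery that switches off G-protein-coupled receptors in rat T cells, together with the main inhibitory G protein that these receptors use. The 10 members were chosen by name, with earlier results of these data known. They were the receptor kinases *Grk2*, *Grk5* and *Grk6* and the arrestins *Arrb1* and *Arrb2*. The others were the G protein subunit *Gnai2* and the RGS genes *Rgs1*, *Rgs2*, *Rgs14* and *Rgs19*. All 10 were found by symbol, 1 row each, among the 32882 genes of each table of normalized counts. The question was whether related kinases, arrestins or RGS genes were altered when *Grk2* was edited, with the *Ets1* editing experiments as a second setting.

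The cells were CD4+ T cells of Lewis rats that recognise myelin basic protein (TMBP cells), which carry experimental autoimmune encephalomyelitis, the rat model of multiple sclerosis, from animal to animal. All groups had been transduced with a retrovirus for a fluorescent protein, electroporated with Cas9 protein and a guide, restimulated with antigen, transferred into rats and sorted by fluorescence on day 3 after transfer. Control cells carried BFP and a non-targeting guide, and KO cells carried EGFP and a guide to *Grk2* or *Ets1*. The paper describes the parenchymal *Ets1*-KO and control cells as taken from co-transferred animals, that is, rats given both. There were 6 groups of 3 libraries: control and *Ets1*-KO cells from the spinal cord parenchyma, control and *Ets1*-KO cells from the spleen, and control and *Grk2*-KO cells from the spleen in an experiment with its own controls. A KO library was made from an edited population rather than from 1 clone, so that fewer cells carrying a transcript and less RNA in each cell cannot be told apart, and the colour of the fluorescent protein went with the genotype throughout.

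Receptors for chemokines and for sphingosine-1-phosphate guide T cells by releasing the G protein Gαi, for which *Gnai2* encodes the main form in lymphocytes. Once a receptor is active, a G-protein-coupled receptor kinase (GRK) phosphorylates its tail, and a β-arrestin then binds, blocks the G protein and brings the receptor to clathrin for internalisation. RGS proteins end the signal at another point, since they speed up GTP hydrolysis by the Gα subunit. GRK2 is widely expressed and is recruited to the membrane by free Gβγ, whereas GRK5 and GRK6 belong to a separate branch of the family that stays close to the membrane.

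The guides are shown because they define the groups. Each is written 5′ to 3′ as a 20-base spacer whose 10 bases next to the PAM, the seed, are in capitals.
*Grk2* guide: gatttgtcagAACCTCCGAG
*Ets1* guide: tgctgctcggAGTTAACAGT
Non-targeting guide: gctgcatgggGCGCGAATCA
The spacers were taken from the study's oligonucleotide list and were not placed on the genome here. That list gives 1 guide for each of the edited genes, so a KO group rests on a single guide.

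In the Rnor_6.0 build, *Grk2* (ENSRNOG00000018985) lies on the minus strand of chromosome 1 from 219536219 to 219544328. *Grk5* (ENSRNOG00000011439) is on the same chromosome from 282265369 to 282462605 on the plus strand, and *Grk6* (ENSRNOG00000014615) is on chromosome 17 from 9703452 to 9721574 on the minus strand. *Rgs14* (ENSRNOG00000015616) is a near neighbour of *Grk6*, from 9777841 to 9792007 on the minus strand. *Rgs1* (ENSRNOG00000003895, 61066152 to 61070599) and *Rgs2* (ENSRNOG00000003687, 60846307 to 60849094) are both on the minus strand of chromosome 13. *Arrb1* (ENSRNOG00000030404) spans chromosome 1 from 164502388 to 164593139 on the plus strand, and *Arrb2* (ENSRNOG00000019308) spans chromosome 10 from 57040266 to 57048134 on the plus strand. *Gnai2* (ENSRNOG00000016592) lies on chromosome 8 from 116370743 to 116391307 and *Rgs19* (ENSRNOG00000016547) on chromosome 3 from 177196686 to 177201525, both on the minus strand. The genes that overlap *Grk5* and *Arrb1* were at 0 in the spleen libraries of the *Grk2* experiment, the only ones checked for this. No gene of the tables overlaps the other members.

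Between 898092 and 2248258 reads per library were counted on genes, and 9635 to 10967 genes had at least 1 read. All 9 T cell markers (*Cd3d*, *Cd3e*, *Cd3g*, *Cd2*, *Cd4*, *Cd5*, *Lck*, *Lat* and *Zap70*) were detected in every group, with summed normalized counts between 4206 and 5277. Of the 12 myeloid markers, 10 were detected in the parenchyma, where their sum was 25.4 to 53.1 in control and 44.5 to 65.7 in *Ets1*-KO libraries, against at most 10.96 in any spleen library. B cell markers summed to at most 13.1 and CNS markers to at most 93.1, the latter mostly *Mbp*, and the defining markers *Pax5* and *Aqp4* were at 0 in every library. Erythroid and endothelial markers summed to at most 1.57. In the spleen, replicate 3 of the *Ets1*-KO cells stood apart, with a chi-square per gene of 8.95 and 9.23 against replicates 1 and 2, which differed from each other by 2.83. Labelled *Ets1*-KO libraries were not lower in *Ets1* itself: the normalized count was 2551 ± 183 against 2400 ± 150 in the parenchyma and 2000 ± 324 against 2077 ± 135 in the spleen (SD, n = 3 each). The assay reads only the 3′ end of a transcript and the guides were not placed, so the count of *Ets1* checks nothing about its label.

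Editing *Grk2* was accompanied by a fall of its own transcript and by no rise of another kinase, arrestin or RGS gene that passed the test. *Grk2* was measured at a normalized count of 166, 166 and 142 in the 3 control libraries and at 53.3, 64.2 and 87.3 in the 3 *Grk2*-KO libraries. Every *Grk2*-KO library was lower than every control library, and the KO libraries differed more among themselves than the controls did. The fold change was 0.43 with a 95% interval from 0.36 to 0.51 (log2 fold change −1.22, standard error 0.13, limma adjusted p = 1.76e-12), and *Grk2* ranked 3 of 6985 genes tested when ordered by p. It passed in 12 of the 13 alternative analyses, in which the adjusted p ranged from 7.27e-16 to 0.50. The exception was limma without the trend of variance on expression, which called 0 genes of this table, where 571 genes had an unadjusted p under 0.05. With 61, 62 and 96 reads in the KO libraries, *Grk2* RNA was lower but present in each.

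*Grk6*, a membrane-bound kinase prominent in leukocytes, had normalized counts of 256, 307 and 277 in control and 293, 326 and 317 in *Grk2*-KO libraries. The KO library was higher than the control library of the same number in all 3 cases, but the groups overlapped. The estimate was 1.12-fold with a 95% interval from 0.99 to 1.26 (log2 fold change 0.16, standard error 0.09, limma adjusted p = 0.55), so that a rise above 1.26-fold lies outside the interval. When the variance trend was left out, the interval of the log2 fold change widened to −0.14 to 0.46.

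*Grk5*, of the same branch as *Grk6*, was lower rather than higher. Its normalized counts were 36.9, 38.8 and 38.5 in control and 29.7, 26.9 and 27.3 in *Grk2*-KO libraries, from 26 to 38 reads in each. The groups did not overlap and were each tight, with 38.0 ± 1.04 in control and 28.0 ± 1.50 in KO cells (SD, n = 3). The fold change of 0.74 had a 95% interval from 0.54 to 1.01 (log2 fold change −0.43, standard error 0.23) and did not pass (limma adjusted p = 0.50, and 0.49 to 0.76 over the 11 alternatives that gave a value). When the variance trend was left out, the standard error was 0.12 and the interval of the log2 fold change narrowed to −0.74 to −0.12, which excludes 0 (limma unadjusted p = 0.016, adjusted p = 0.54).

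Among the arrestins, *Arrb2* was measured at 96.5, 88.7 and 78.9 in control and at 83.8, 72.5 and 86.4 in *Grk2*-KO libraries. These ranges overlapped, and the log2 fold change was −0.12 (95% interval −0.40 to 0.16, limma adjusted p = 0.83). *Arrb1* was close to absent in all 18 libraries, at 0 to 5 reads each and 37 reads in all, and was under the minimum mean normalized count of 10 in every comparison. In the 2 libraries without an *Arrb1* read, counting error alone allows a normalized count of up to 3.03 and 4.70. In *Grk2*-KO libraries *Arrb1* had 1, 3 and 1 reads, against 2, 4 and 3 in control libraries, so that its level stayed under the minimum with *Grk2* edited, while a fall was not detectable at this depth.

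*Gnai2* was at 1883, 1817 and 1746 in control and at 2043, 1848 and 1942 in *Grk2*-KO libraries, which overlapped (log2 fold change 0.10, 95% interval −0.03 to 0.23, limma adjusted p = 0.64). *Rgs19*, whose product binds Gαi and was first known as GAIP, was at 155, 160 and 183 in control and at 188, 193 and 207 in *Grk2*-KO libraries. It was the RGS gene among the members whose groups did not overlap, and its log2 fold change of 0.24 (95% interval 0.03 to 0.45) had an unadjusted p of 0.023 but did not pass after adjustment (limma adjusted p = 0.35, and 0.31 to 0.999 over the alternatives).

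The other RGS genes varied more between libraries than between genotypes. *Rgs1*, an activation-induced brake on chemokine responses, was at 400, 302 and 305 in control and at 431, 309 and 290 in KO libraries, with replicate 1 the highest of both groups (log2 fold change 0.02, 95% interval −0.15 to 0.20, limma adjusted p = 0.96). *Rgs2*, which acts chiefly on Gαq, was at 273, 277 and 243 in control and at 313, 297 and 193 in KO libraries, so that KO libraries were both the highest and the lowest (log2 fold change −0.01, 95% interval −0.20 to 0.17, limma adjusted p = 0.99). *Rgs14*, which has a Gαi-binding GoLoco motif besides its RGS domain, was at 67.2, 56.5 and 61.7 in control and at 60.3, 64.2 and 86.4 in KO libraries (log2 fold change 0.17, 95% interval −0.15 to 0.49, limma adjusted p = 0.79). For all 3 genes the libraries of the 2 genotypes overlapped.

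Of the 9 members tested, 1 was thus lower, 0 were higher and 8 did not pass. The 1 called was *Grk2*, the edited gene, so its call is no result about the related members. Over all 6985 genes, 1.56% were called in either direction, 0.63% lower and 0.931% higher. The count of 0 rises was the same with edgeR and DESeq2, and 1 member that was higher, *Rgs19*, had an unadjusted limma p under 0.05, as did *Grk2* and 10.4% of all genes. *Grk2*, *Grk5* and *Rgs19* did not overlap between genotypes, and 12.2% of all genes tested did so. The median log2 fold change of the 9 members was 0.02, as was that of all genes. With 3 libraries against 3, the exact permutation test of a single gene (two-sided, 20 labellings) cannot give a p under 0.1, which is what these 3 genes reached.

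**Figure D1:**
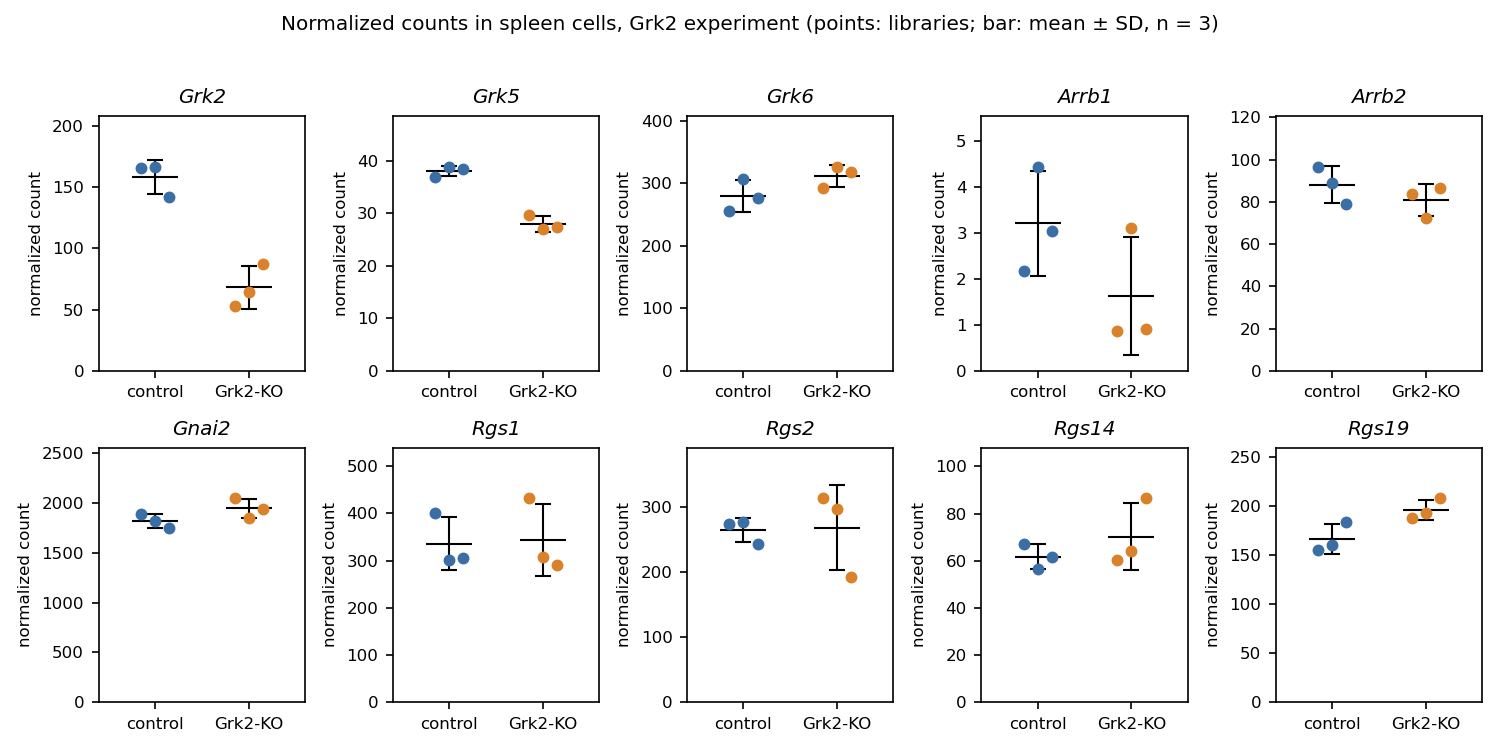
Normalized counts (y axis, each starting at 0) of the 10 members in the control (blue) and *Grk2*-KO (orange) spleen libraries of the *Grk2* experiment; points are libraries and black bars the mean ± SD of 3. *Grk2* falls from 158 to 68.3 on average, *Grk5* lies lower in all KO libraries, and *Grk6* overlaps between genotypes.

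In the parenchyma, *Rgs2* was higher in cells labelled *Ets1*-KO, and none of the other members passed. *Rgs2* was at 285, 292 and 253 in control and at 381, 349 and 326 in *Ets1*-KO libraries, with no overlap. The rise of 1.27-fold (95% interval 1.11 to 1.45, log2 fold change 0.35, standard error 0.10, limma adjusted p = 0.013) passed in 6 of 13 alternatives, whose adjusted p ranged from 0.0060 with edgeR to 0.38 without a variance trend. It did not pass without the replicate block (adjusted p = 0.070) or with DESeq2 (adjusted p = 0.17). Nor did it pass when replicate 1 (0.18), replicate 2 (0.088) or replicate 3 (0.060) was left out. *Rgs2* is also transcribed in myeloid cells, whose markers were summed to 44.5 to 65.7 in these KO libraries against 25.4 to 53.1 in the controls, led by *Lyz2*, and their part in the value of *Rgs2* was not tested.

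*Grk2* itself was at 190, 226 and 218 in control and at 156, 202 and 178 in parenchymal *Ets1*-KO libraries. The KO library was lower at each replicate number, while the ranges overlapped, and the log2 fold change was −0.24 (95% interval −0.47 to −0.02, limma adjusted p = 0.23). *Grk5* was at 110, 66.8 and 125 in control against 83.9, 84.9 and 77.1 in KO libraries, the control libraries being the scattered ones (log2 fold change −0.25, 95% interval −0.54 to 0.05, limma adjusted p = 0.43). *Grk6* averaged 483 ± 32.9 in control and 491 ± 63.0 in KO cells (SD, n = 3; log2 fold change 0.02, 95% interval −0.16 to 0.19, limma adjusted p = 0.95).

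*Arrb2* was at 132, 185 and 170 in control and at 120, 135 and 138 in KO libraries, again lower at each number with overlapping ranges (log2 fold change −0.29, 95% interval −0.54 to −0.04, limma adjusted p = 0.18). *Gnai2* averaged 1542 ± 147 in control and 1388 ± 62.0 in KO cells (log2 fold change −0.15, 95% interval −0.29 to −0.01, limma adjusted p = 0.26). It passed in 2 of the 13 alternatives, quantile normalization (adjusted p = 0.048) and without replicate 3 (0.013), with a range of 0.013 to 0.80. *Rgs1* averaged 210 ± 14.3 in control and 212 ± 14.8 in KO cells, and *Rgs19* 45.0 ± 7.83 and 37.2 ± 6.83, with adjusted p values of 0.98 and 0.57 from limma.

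*Rgs14* was at 22.4, 35.7 and 34.4 in control and at 36.4, 36.4 and 44.2 in KO libraries. The normalized counts did not overlap, although the highest control library had 38 reads and the lowest KO libraries 36 (log2 fold change 0.35, 95% interval −0.11 to 0.81, limma adjusted p = 0.47). In all, 1 of 9 members was called in the parenchyma against 5.23% of the 7002 genes tested and 2.27% that were higher. There were 4 members with an unadjusted p under 0.05, *Grk2*, *Arrb2*, *Gnai2* and *Rgs2*, where 16.9% of all genes had one. *Rgs2* and *Rgs14* did not overlap between genotypes, as was so for 18.4% of genes. The median log2 fold change was −0.15 over the members and −0.03 over all genes.

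In the spleen no member passed (0 of 9 with limma, edgeR and DESeq2 alike, and 0 with an unadjusted p under 0.05), where 2.22% of the 6979 genes tested were called and 14.1% had an unadjusted p under 0.05. The depth of the groups differed here, with 898092 to 1213485 reads in control and 1909862 to 2248258 in *Ets1*-KO libraries, and the part of depth in these values was not tested. *Gnai2* was the member without overlap, at 3084, 3015 and 3300 in control and at 2597, 2795 and 2812 in KO libraries. Its log2 fold change was −0.20 (95% interval −0.44 to 0.05, limma adjusted p = 0.48), and 16.9% of all genes tested did not overlap either.

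*Grk2* was at 215, 214 and 201 in control and at 214, 256 and 228 in splenic *Ets1*-KO libraries, overlapping at the lower end (log2 fold change 0.14, 95% interval −0.12 to 0.40, limma adjusted p = 0.67). *Grk5* averaged 62.6 ± 13.6 in control and 70.9 ± 13.6 in KO cells, and *Grk6* 685 ± 123 and 632 ± 26.7 (SD, n = 3), with intervals of the log2 fold change from −0.22 to 0.58 and from −0.34 to 0.14. *Arrb2* was at 143, 130 and 158 in control and at 192, 183 and 144 in KO libraries, where replicate 3, which stood apart, was the low one (log2 fold change 0.26, 95% interval −0.04 to 0.56, limma adjusted p = 0.44).

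In the spleen, *Rgs1*, *Rgs2* and *Rgs19* were spread between control libraries, while *Rgs14* was tighter there. *Rgs2* was at 282, 369 and 273 in control and at 267, 242 and 305 in KO libraries. *Rgs19* was at 79.9, 75.3 and 40.74 in control libraries and *Rgs1* at 120, 130 and 92.5, with replicate 3, the shallowest library of the series, the lowest for both genes. *Rgs14* was at 87.5, 77.4 and 86.2 in control and at 107, 118 and 86.2 in KO libraries, with replicate 3 of both genotypes at the same level. The log2 fold changes were 0.13 for *Rgs19*, 0.22 for *Rgs1*, −0.18 for *Rgs2* and 0.30 for *Rgs14*, and limma adjusted p values lay between 0.43 and 0.81.

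**Figure D2:**
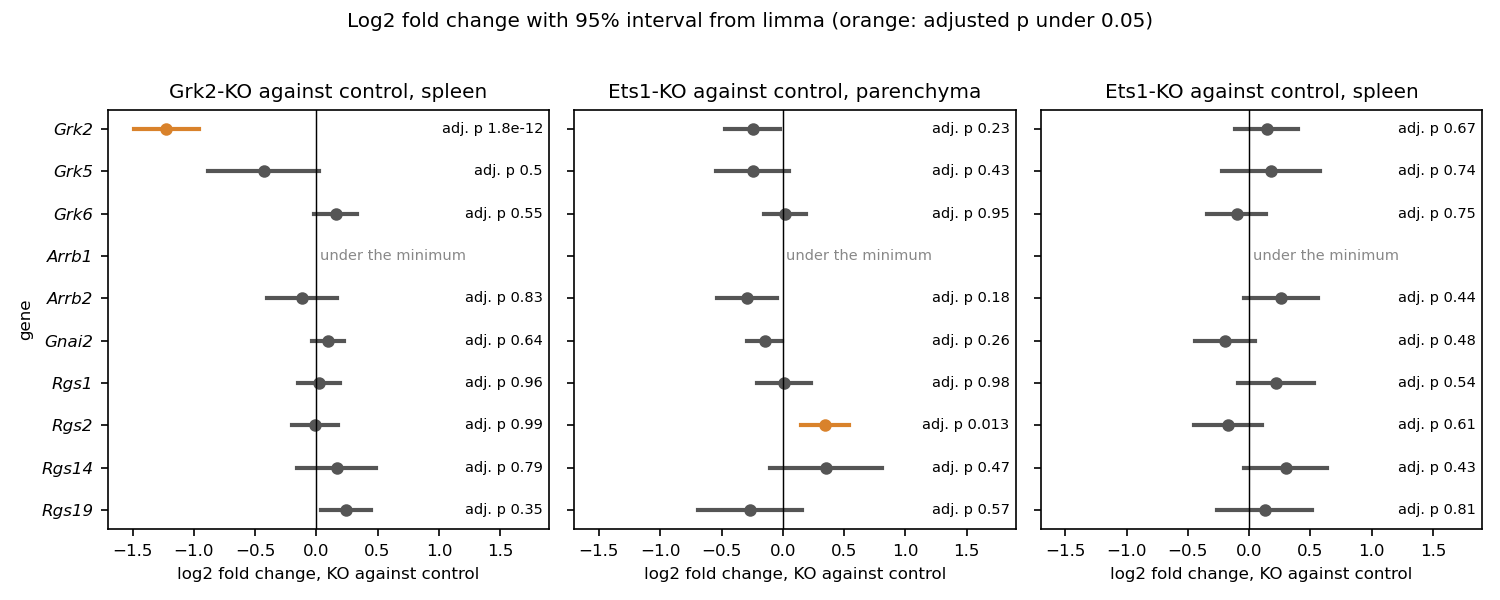
Log2 fold change of each member, KO against control (x axis), with its 95% interval from limma, in the 3 comparisons; orange marks an adjusted p under 0.05, and *Arrb1* was under the minimum. *Grk2* stands at −1.22 in *Grk2*-KO cells and *Rgs2* at 0.35 in parenchymal *Ets1*-KO cells, and the other points are grey.

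The effect of editing was compared between experiments on the log2 ratios of same-numbered libraries, since tables were scaled separately. The change of *Grk2* in the spleen differed between the edited genes, its log2 ratio being lower in the *Grk2* than in the *Ets1* experiment (difference −1.37, standard error 0.20, 95% interval −1.77 to −0.96, limma adjusted p = 5.18e-05). It passed in 9 of 11 alternatives, with an adjusted p from 1.65e-05 to 0.15, the exceptions being no variance trend (0.15) and the omission of replicate 2 (0.052). *Grk2*, the gene edited in 1 of these experiments, was the 1 member of 9 called, against 1.94% of 6490 genes, 0.724% in the lower direction. For *Grk6* the difference was 0.26 (95% interval −0.03 to 0.55, adjusted p = 0.45), for *Grk5* −0.61 (−1.21 to −0.02, adjusted p = 0.37) and for *Gnai2* 0.29 (0.04 to 0.55, adjusted p = 0.29).

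Between the tissues, no member had an *Ets1*-KO effect that differed after adjustment, where 2.1% of 6520 genes did, and *Grk2*, *Arrb2* and *Rgs2* had an unadjusted limma p under 0.05, as did 13.8% of genes. For *Rgs2* the effect in the parenchyma minus that in the spleen was 0.52 (95% interval 0.19 to 0.86, limma adjusted p = 0.097, and 0.058 to 0.47 over the 11 alternatives). The rise of *Rgs2* in the parenchyma is therefore not shown to be absent from the spleen. For *Arrb2* the difference was −0.55 (95% interval −0.94 to −0.16, adjusted p = 0.13) and for *Grk2* −0.39 (−0.72 to −0.05, adjusted p = 0.26).

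Levels across tables are given as reads per 1000000 counted reads (RPM), with no test, because the tables were scaled separately and the experiment cannot be told apart from the table. *Grk2* had 107 to 130 RPM in the control spleen of its own experiment, 143 to 166 in the control spleen of the *Ets1* experiment and 136 to 155 in the control parenchyma. The last 2 ranges overlapped, and *Grk2*-KO cells, at 41.4 to 67.0, were the only group of the 6 below 100 RPM.

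The control spleen groups of the 2 experiments, although of the same label, differed in most members. How many of all genes lay apart in this way was not counted, so the differences cannot be called particular to the members. *Rgs1* had 229 to 313 RPM in the *Grk2* experiment and 65.7 to 101 in the *Ets1* experiment, and *Rgs19* had 121 to 138 and 29.0 to 60.2. *Grk6* went the other way, with 200.2 to 237 against 447 to 582, as did *Gnai2*, with 1313 to 1473 against 2323 to 2345, *Arrb2*, with 59.4 to 75.5 against 101 to 112, *Grk5*, with 28.8 to 30.0 against 41.6 to 55.7, and *Rgs14*, with 43.7 to 52.6 against 59.9 to 65.9. Only *Rgs2* overlapped, at 183 to 214 and 194 to 286, among the 9 members with a mean of at least 10. For *Rgs1*, *Rgs19*, *Grk6*, *Gnai2*, *Arrb2*, *Grk5* and *Rgs14* these 2 control ranges were thus farther apart than those of any KO group and its control in the same table. That was not so for *Grk2*, at 41.4 to 67.0 RPM in *Grk2*-KO cells and 107 to 130 in their controls.

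In the 2 *Ets1* tables, control cells of the parenchyma and of the spleen also differed in the level of some members. Tissue cannot be told apart from table here. The share of all genes without overlap between these 2 groups was not counted either. *Gnai2* had 975 to 1140 RPM in the parenchyma against 2323 to 2345 in the spleen, *Rgs14* 16.04 to 24.6 against 59.9 to 65.9 and *Grk6* 319 to 351 against 447 to 582, all lower in the parenchyma. *Rgs1* was higher there, at 137 to 156 against 65.7 to 101. *Grk5*, *Arrb2*, *Grk2*, *Rgs2* and *Rgs19* had overlapping ranges in these 2 groups. The control spleen of the *Grk2* experiment kept the order for *Gnai2*, at 1313 to 1473 RPM, and *Rgs14*, at 43.7 to 52.6. It reversed the order for *Grk6*, at 200.2 to 237, below the parenchyma, and for *Rgs1*, at 229 to 313, above it.

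**Figure D3:**
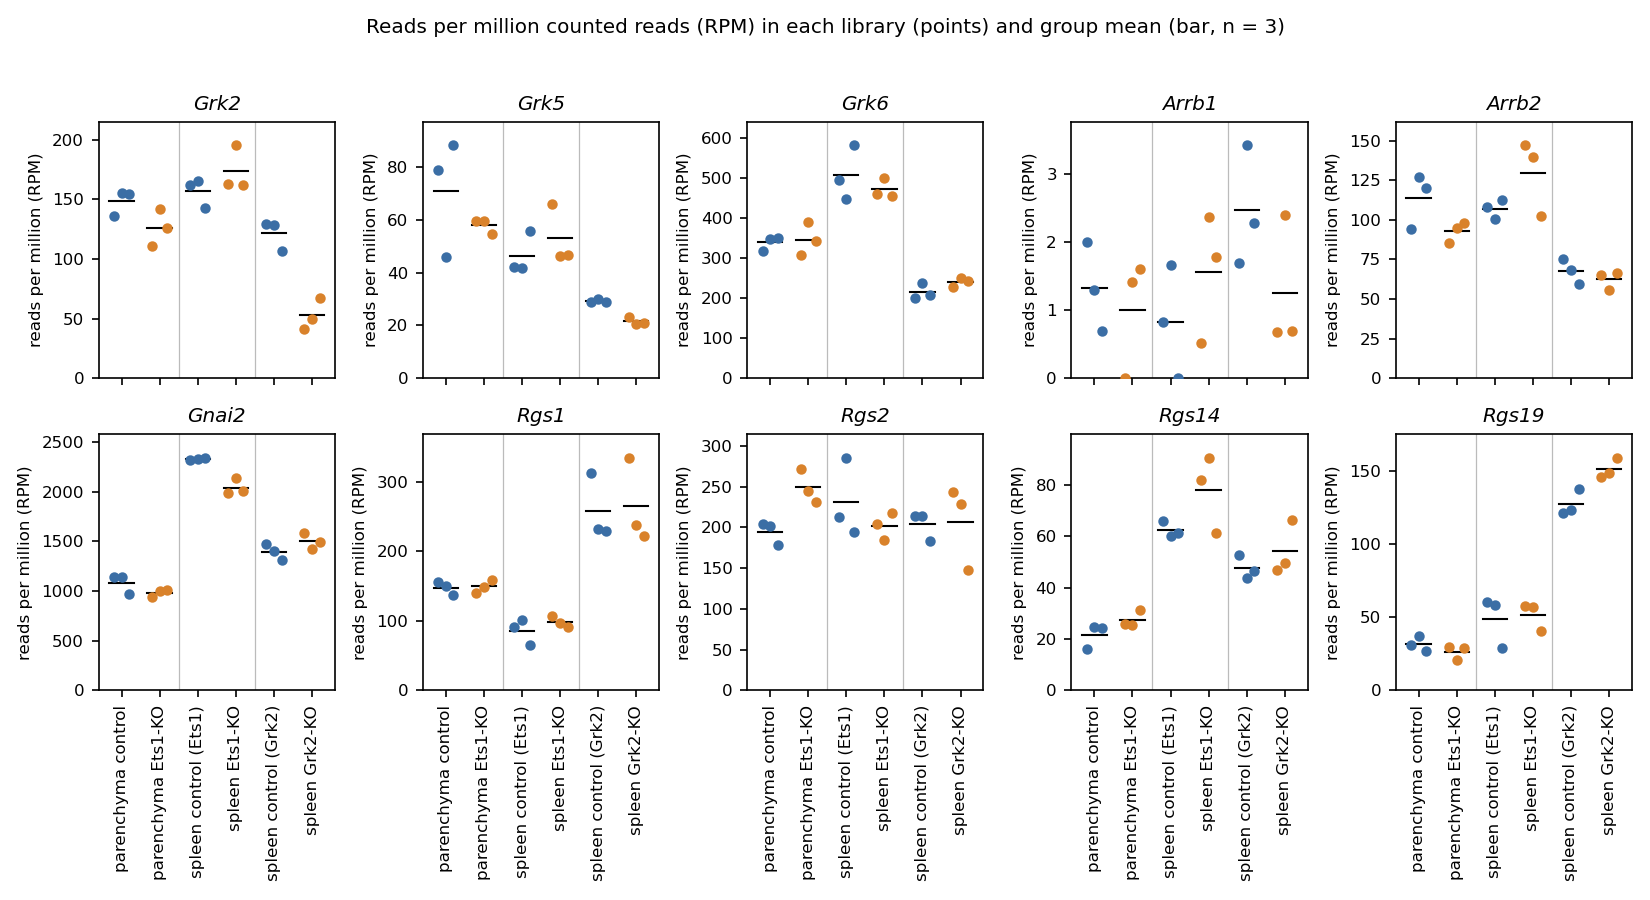
Reads per 1000000 counted reads (RPM, y axis, from 0) of the 10 members in each of the 18 libraries (points; blue control, orange KO) with the group mean of 3 as a bar; vertical lines separate the 3 tables. *Grk2*-KO cells lie at 41.4 to 67.0 for *Grk2*, below the other groups, while *Rgs1*, *Rgs19*, *Grk6* and *Gnai2* differ mainly between tables.

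The lists of further GRKs, G protein subunits, RGS genes, internalisation partners and receptors held 82 genes, of which 37 to 40 passed the minimum in each comparison. In *Grk2*-KO cells 1 of 37 was called, the chemokine receptor gene *Cxcr4*, which was higher, and 36 were not, where 1.56% of all 6985 genes were called. The median log2 fold change of the 37 was 0.01, beside 0.02 over all genes. *Cxcr4* was at 230, 265 and 186 in control and at 349, 315 and 240 in *Grk2*-KO libraries, higher in KO cells at each replicate number while the ranges overlapped. Its log2 fold change was 0.41 (standard error 0.09, limma adjusted p = 0.0046), and it passed in 8 of 13 alternatives, with adjusted p values from 0.0039 to 0.93 and 0.29 without the replicate block. Its log2 ratio was higher by 0.80 in the *Grk2* than in the splenic *Ets1* experiment (standard error 0.17, limma adjusted p = 0.0070). In that *Ets1* experiment it was at 139, 137 and 107 in control and at 97.2, 96.8 and 93.7 in KO libraries (log2 fold change −0.40, limma adjusted p = 0.22). Of 36 pathway genes 2 were called in this difference, against 1.94% of 6490 genes. The other was the chemokine receptor gene *Ccr6*, whose log2 ratio was lower in the *Grk2* experiment (difference −1.61, standard error 0.34, limma adjusted p = 0.0070). *Ccr6* was not called in *Grk2*-KO cells, and in splenic *Ets1*-KO cells it was higher (log2 fold change 1.249, limma adjusted p = 0.034).

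Genes of 2 receptors that guide these cells were not called. *S1pr1*, the receptor for sphingosine-1-phosphate, was at 324, 336 and 321 in control and at 357, 341 and 303 in *Grk2*-KO libraries, and its log2 fold change of 0.03 had a 95% interval from −0.15 to 0.20 (limma adjusted p = 0.96). *Cxcr3*, a receptor for interferon-induced chemokines, was at 301, 314 and 352 in control and at 347, 358 and 400 in KO libraries, higher at each number with overlapping ranges (log2 fold change 0.19, 95% interval 0.02 to 0.36, limma adjusted p = 0.38). In *Ets1*-KO cells *S1pr1* had log2 fold changes of 0.04 in the parenchyma and −0.05 in the spleen, and *Cxcr3* of −0.17 and 0.25, with limma adjusted p values of at least 0.32.

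*Grk3*, the closest relative of *Grk2*, was listed but had 0 to 2 reads in each library, below the minimum, and of the other GRKs and visual arrestins *Grk4* alone was tested. These genes, and *Rgs10* below, were singled out after their values had been seen. *Grk4*, a kinase known mainly from testis and kidney, was at 16.3, 7.76 and 18.2 in control and at 21.8, 14.5 and 23.6 in *Grk2*-KO libraries (log2 fold change 0.53, 95% interval −0.09 to 1.15, limma adjusted p = 0.57). *Rgs10*, the other RGS gene tested in that table, was at 105, 99.8 and 92.1 in control and at 135, 147 and 118 in KO libraries without overlap, and missed the threshold (log2 fold change 0.42, standard error 0.12, limma adjusted p = 0.051, and 0.050 to 0.999 over 13 alternatives, none of which called it). The 12 internalisation partners tested, among them genes of clathrin and its adaptor AP2, did not pass and had a median log2 fold change of −0.13.

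In parenchymal *Ets1*-KO cells 4 of 40 pathway genes were called, against 5.23% of all 7002 genes tested. *Ccr6*, a chemokine receptor gene of the Th17 type of T cell, rose from 151 to 401 in mean normalized count (log2 fold change 1.40, limma adjusted p = 1.78e-36), and *Rgs16*, an RGS gene induced on T cell activation, from 82.8 to 175 (1.098, adjusted p = 2.33e-13). Both passed in 12 of 13 alternatives, with adjusted p values of up to 0.099 and 0.22 in the analysis without a variance trend. *Rgs16* was at 103, 83.7 and 61.9 in control and at 159, 190 and 177 in KO libraries and had a larger log2 fold change than any RGS gene among the members in this comparison. *Arhgef7*, a partner of the GRK-interacting GIT proteins, was higher (log2 fold change 0.41, adjusted p = 0.0062, 8 of 13 alternatives, 0.0027 to 0.56) and *Gpsm3*, a GoLoco-motif regulator of Gαi, was lower (−0.33, adjusted p = 0.038, 4 of 13 alternatives, 0.0048 to 0.54). In the spleen 2 of 39 were called, against 2.22% of all 6979 genes tested. These were *Ccr6*, which was higher (1.249, adjusted p = 0.034, 6 of 11 alternatives, 0.0067 to 0.32), and the Gγ subunit gene *Gng3*, which was lower (−0.62, adjusted p = 0.019, 8 of 13 alternatives, 0.0017 to 0.40).

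**Figure D4:**
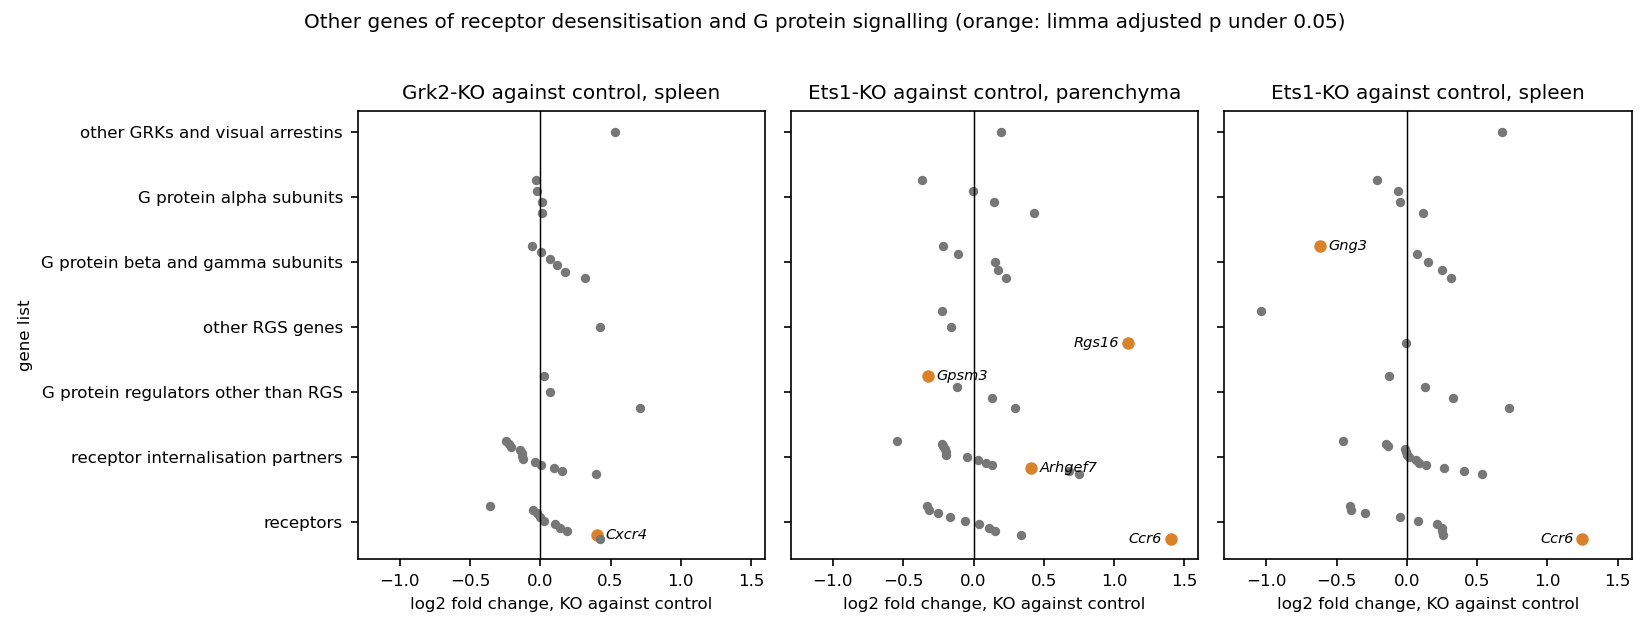
Log2 fold change, KO against control (x axis), of every tested gene of the pathway lists (rows) in the 3 comparisons; orange and named are genes with a limma adjusted p under 0.05. In *Grk2*-KO cells *Cxcr4* alone is named, at 0.41, while *Ccr6* and *Rgs16* stand at 1.40 and 1.098 in parenchymal *Ets1*-KO cells.

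Genes whose pattern was most like that of *Grk2* were sought over the 18 libraries, after centring log2 values within each table, among 6207 genes tested in all 3 tables. *Wars1*, *Glcci1* and *Ccr3* had the highest Pearson correlation with *Grk2*, at 0.80, 0.75 and 0.75. Among the members the coefficients were 0.40 for *Arrb2* and *Grk5* and from −0.28 for *Rgs2* to −0.04 for *Rgs14* for the others. These are descriptions only, since libraries of a table share their scaling and the fall of *Grk2* in 3 libraries weighs on every coefficient.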

How the data were processed

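RNA of 18 sorted TMBP cell samples was prepared with the Collibri 3′ mRNA kit and sequenced single-end. The authors aligned reads with STAR (version 2.7.2b) to Rnor_6.0, counted them per gene with HTSeq-count (version 1.0.0) and deposited 3 tables of normalized signal, that is, read counts divided by DESeq2 size factors (poscounts; version 2.11.40.7 per the labels). All positive values (100%) were whole multiples of 1 step per library within 0.01, so reads were recovered and used for edgeR and DESeq2. Columns of the authors' own fold changes and p values, and 8 columns of human values, were not used. No strand setting was given in the sources used here.

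Each table was tested on its own with limma (version 3.58.1, R 4.3.3; lmFit and eBayes with a trend) on log2(normalized count + 1), a scale that understates changes of low genes. Genes with a mean of at least 10 over the 6 libraries entered, replicate number was a block because the methods correct per animal when applicable, and p values were adjusted by Benjamini-Hochberg over all genes, with a threshold of 0.05, two-sided. Differences between comparisons were tested on log2 ratios of same-numbered libraries. Single genes were also given an exact permutation test. Nothing in the labels ties libraries to animals, so p values measure the spread between these libraries. Alternatives were no block, pseudocounts of 0.1 and 5, no minimum or a minimum of 50, quantile and upper quartile scaling, no variance trend, edgeR (version 4.0.16), DESeq2 (version 1.42.0) and leaving out each replicate number. The scripts were tested on simulated data. Counting limits of 3 reads cover counting error only.

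All 10 members were described, of the pathway lists the genes called and always *S1pr1* and *Cxcr3*, and *Ets1* as a check. Members and lists were chosen with earlier results of these data known. Of the listed genes, *Grk7*, *Rgs11*, *Ccr2*, *Hba1* and *Pecam1* were not matched by symbol, and *Gnas* has 2 rows, of which the one above the minimum was tested.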

Additional observations from a re-analysis of the deposited data

How the results depend on the processing

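With limma and no replicate block, 19 genes were called in *Grk2*-KO cells, 200 in the parenchyma and 71 in the spleen of *Ets1*-KO cells, and 47 and 43 in the differences between tissues and between edited genes; 0 members were called in the parenchyma. The correlation of same-numbered KO and control libraries, as deviations from their group means, was −0.0030 to 0.18 and over 0.1 in 5 of 9 pairs, so not every pair reached 0.1. The paper describes co-transfer of KO and control cells for the parenchyma, but the labels do not say that a replicate number is 1 animal. That 7 of 9 KO libraries correlated best with their own number is a hint from the data that numbers mark pairs. Without a variance trend the same 5 counts were 0, 3, 0, 2 and 0 (571, 893, 785, 757 and 749 genes at an unadjusted p under 0.05), and no member was called in *Grk2*-KO cells, in the parenchyma or in the difference between edited genes (0 each). DESeq2 called 9, 90 and 48 genes in the 3 comparisons and 0 members in the parenchyma, and edgeR 238 genes in the spleen. Without a minimum 212 genes were called in the parenchyma and 242 in the spleen, with 0 members in the former, and with a minimum of 50 there were 60 in *Grk2*-KO cells. Quantile normalization called 2 members in the parenchyma. Leaving out 1 replicate number at a time gave 9 to 48 genes in *Grk2*-KO cells, 165 to 278 in the parenchyma, 3 to 241 in the spleen (3 without replicate 1), 27 to 98 in the difference between tissues and 24 to 49 in that between edited genes, with 0 to 1 member called in the parenchyma and 0 to 1 in the difference between edited genes.

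Signs turned only for values that did not pass. When 1 replicate number at a time was left out, log2 fold changes in *Grk2*-KO cells ranged from −0.018 to 0.071 for *Rgs1* and −0.12 to 0.15 for *Rgs2*. In the parenchyma they ranged from −0.040 to 0.050 for *Grk6*, −0.094 to 0.090 for *Rgs1* and −0.45 to 0.019 for *Rgs19*, and in the spleen from −0.040 to 0.40 for *Grk5*, −0.24 to 0.024 for *Grk6*, −0.34 to 0.040 for *Rgs2* and −0.050 to 0.23 for *Rgs19*. The difference between tissues ranged from −0.069 to 0.13 for *Gnai2* (−0.011 after quantile normalization) and −0.11 to 0.37 for *Rgs14*, and that between edited genes from −0.11 to 0.49 for *Rgs2*, −0.43 to 0.026 for *Rgs14* and −0.011 to 0.32 for *Rgs19*. The cause of these changes was not tested. Differences were not run with edgeR or DESeq2. *Arrb1* and *Grk3*, with at most 5 and 2 reads in a library, were too low to be tested.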
